A study of Mus musculus with 7 samples.

Results

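The genes examined here were 10 components of the spindle assembly checkpoint and the Aurora kinase family: Bub1, Bub1b, Bub3, Mad1l1, Mad2l1, Ttk, Cdc20, Aurka, Aurkb and Aurkc. They were chosen by name from the 33437 transcripts of a deposited table of expression in mouse oocytes. The table itself names 7 of them on their own strand. The other 3 (Bub1b, Bub3 and Cdc20) stand under the name of a neighbouring gene and were found by position on the same strand. Each gene had 1 transcript, and all 10 were among the 18179 transcripts that passed a filter of 1 RPM in 3 libraries. RPM relates the reads of each transcript to all mapped reads in that library.

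Single germinal vesicle (GV) oocytes were sequenced, which are arrested in prophase of the first meiotic division, from 21-day-old C57BL6 females (C57BL/6OlaHsd in the study's methods). All females were Setd1b floxed/floxed per the labels. In 4 libraries the females were Gdf9-Cre positive (Setd1b cKO), and in 3 they were Gdf9-Cre negative (Setd1b WT). Gdf9-Cre removes the floxed segment in oocytes from early folliculogenesis onwards, so that earlier stages kept SETD1B, a methyltransferase for lysine 4 of histone H3. The study's methods also count females with 1 intact allele and Cre among the WT. One oocyte made 1 library, and neither the labels nor the methods say which oocytes shared a mother, so p-values measure the spread between these oocytes.

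The spindle assembly checkpoint delays anaphase until every chromosome is attached to the spindle. The kinase MPS1 (encoded by Ttk) recruits BUB1, BUB3, BUBR1 (encoded by Bub1b), MAD1 (Mad1l1) and MAD2 (Mad2l1) to unattached kinetochores, where a complex is built that holds CDC20, the activator of the anaphase-promoting complex (APC/C). Aurora A acts at the spindle poles, whereas Aurora B and its germline paralog Aurora C act at centromeres in the chromosomal passenger complex. Fully grown oocytes store the transcripts that they use for the meiotic divisions, since transcription is silenced before meiosis resumes.

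Before the members are described, the sequences that bear on their counting and on their starts are given. Aurkb and Aurkc are close paralogs, and the longest run of identical bases between their reference transcripts was 25 bases, shorter than the 75-base reads. It is shown in capitals with 15 bases on each side, 5′ to 3′, as the coding strand of each transcript reads (GENCODE M21).
Aurkb: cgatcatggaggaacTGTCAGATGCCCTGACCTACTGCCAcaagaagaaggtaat
Aurkc: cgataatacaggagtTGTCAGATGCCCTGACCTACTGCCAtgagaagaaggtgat
Between Aurka and Aurkb the longest identical run was 20 bases, between Aurka and Aurkc 12 bases, and between Bub1 and Bub1b 14 bases. Untrimmed reads of 75 bases from 1 of these reference transcripts therefore could not map without mismatch to the other of its pair. Reads shortened by trimming, and other isoforms, were not examined.

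Copies elsewhere in the genome were closer to 1 member. Of the 1080 windows of 75 bases in the Aurkc transcript, 708 (65.6%) were identical to a window of another annotated gene. The processed pseudogene Gm12463 (GRCm38, chr4:44752277-44753125, minus strand) held 630 of them, and it had no transcript of its own in the table. The pseudogene Gm6909 on chromosome 7 held 78 windows, and its transcript was at 3.85 to 12.4 RPM. Gm7151, also on chromosome 7, held 41 windows (3.80%), and the long transcript over it was at 29.0 to 80.9 RPM in the cKO and 7.32 to 21.7 RPM in the WT. The authors removed reads of low mapping quality, which affects such windows, so the level of Aurkc is uncertain, and the part of these copies in it was not tested. Of the other members, Cdc20 shared 84 windows (4.89%) and Mad2l1 22 windows (0.294%), and the remaining 7 shared none.

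The promoters of cell cycle genes often carry repeats of the CCAAT box and a CHR element (TTTGAA), through which transcription in dividing cells is timed. Promoter windows from 110 bases before to 30 bases after the RefSeq start (GRCm38) are shown for 4 members that held both, and for Aurkc and Mad2l1 for contrast. Letters run 5′ to 3′ on the gene's strand, and capitals mark CCAAT and TTTGAA on either strand (ATTGG and TTCAAA when on the other).
Aurka (chr2:172370541-172370680, minus strand): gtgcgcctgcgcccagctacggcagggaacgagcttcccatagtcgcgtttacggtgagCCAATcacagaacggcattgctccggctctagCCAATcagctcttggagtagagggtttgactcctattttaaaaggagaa
Ttk (chr9:83834579-83834718, plus strand): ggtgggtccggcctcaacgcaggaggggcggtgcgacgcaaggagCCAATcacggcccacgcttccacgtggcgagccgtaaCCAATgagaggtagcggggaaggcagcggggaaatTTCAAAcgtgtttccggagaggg
Cdc20 (chr4:118437314-118437453, minus strand): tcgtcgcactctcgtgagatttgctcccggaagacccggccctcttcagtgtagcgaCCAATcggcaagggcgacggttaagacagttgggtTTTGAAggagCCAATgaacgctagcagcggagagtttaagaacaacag
Bub3 (chr7:131560260-131560399, plus strand): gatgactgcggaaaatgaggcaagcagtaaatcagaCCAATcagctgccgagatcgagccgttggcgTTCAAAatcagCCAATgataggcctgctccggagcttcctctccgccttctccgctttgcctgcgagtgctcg
Aurkc (chr7:6995275-6995414, plus strand): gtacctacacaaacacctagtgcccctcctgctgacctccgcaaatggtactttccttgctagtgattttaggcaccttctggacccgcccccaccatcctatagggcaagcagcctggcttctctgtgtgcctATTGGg
Mad2l1 (chr6:66535111-66535250, plus strand): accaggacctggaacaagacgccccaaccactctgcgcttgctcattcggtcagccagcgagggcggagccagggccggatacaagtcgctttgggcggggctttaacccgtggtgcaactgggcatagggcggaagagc
A promoter of 300 bases was listed for 9 of the members. Of these 9, 5 held at least 2 CCAAT boxes, against 11.7% of the 32851 RefSeq promoters, and 4 (Bub3, Ttk, Cdc20 and Aurka) also held TTTGAA, against 2.09%. The TTTGAA of Aurka lies at base 33 after the start, beyond the window shown. Aurkc held 1 CCAAT, at base 25 after its start on the other strand, and the promoters of Mad1l1 and Mad2l1 held neither motif. These are matches of letters, without a measurement of binding.

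The oocyte transcripts, whose spans (GRCm38) are given with each member below, did not all begin at the annotated starts. For Ttk, Cdc20, Aurkc, Bub3, Mad2l1, Aurka and Aurkb the transcript began within 226 bases of the GENCODE start. It began 2007 bases upstream for Mad1l1, 6187 bases upstream for Bub1b and 9303 bases upstream for Bub1. Measured from the RefSeq start, the oocyte transcript also began 274 bases upstream for Bub3, 191 for Aurka and 146 for Aurkc. The promoter windows printed for these 3 therefore lie inside the oocyte transcript, and those of Ttk, Cdc20 and Mad2l1 span its start.

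Libraries were compared first. They held 8582493 to 12972366 mapped reads, so that 1 read was worth 0.0771 to 0.117 RPM. Reads outside the transcripts made up 13.2 to 16.4% of the Setd1b cKO libraries and 9.57 to 9.90% of the WT libraries. The second principal component (31.0% of the variance) set cKO replicate 4 and WT replicate 3 apart from the other 5 libraries, and the members' fold changes, within-library differences and levels per length, and the medians of the pathway lists, are given below with and without this pair. The labels name no sequencing batch. Over the whole Setd1b transcript, the targeted gene ranged from 2.68 to 16.7 RPM in the cKO and from 8.61 to 17.7 RPM in the WT, and since this includes sequence outside the floxed segment it gives no check of the labels. Of 12 oocyte marker genes 11 were in the table, all of them tested, with a summed level of 20740 to 21550 RPM in the cKO and 24910 to 26040 RPM in the WT. Of 16 granulosa cell markers 8 were tested, 6 fitted higher and 2 lower in the cKO. They summed to 160 to 190 RPM in the cKO and 202 to 242 RPM in the WT, a difference carried by Esr2 (86.8 against 148 RPM, adjusted p = 0.0421 in limma). Inha was at 0.58 to 13.2 RPM in the cKO and 0 to 4.32 RPM in the WT (log2 fold change 1.70, adjusted p = 0.225 in limma), and the defining genes Foxl2 and Amh stayed at or below 0.165 and 0.174 RPM. Without Esr2 the list summed to 84.2 to 98.0 RPM in the cKO and 53.5 to 83.6 RPM in the WT, and 13 of the 16 markers had the higher mean in the cKO. Markers of theca, stroma, blood and endothelium summed to 14.6 to 25.3 RPM in the cKO and 16.8 to 22.6 RPM in the WT, with Lum, Hbb-b1 and Hba-a1 at 0 in all 7 libraries. Of these 3 lists 2 genes passed the threshold described below: Mos, an oocyte kinase, was lower in the cKO (log2 fold change -1.34, adjusted p = 0.00581 in limma), and Dcn, a stromal gene, was higher (mean 6.47 RPM against 1.87 RPM in the WT, adjusted p = 0.0248 in limma). The part of these markers in the values of the members was not tested. RPM is a share of the reads of an oocyte, so the amount of a transcript per oocyte was not measured.

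Whether loss of SETD1B alters the expression of the checkpoint and Aurora genes was examined with limma on log2(RPM + 1), where the threshold was more than a 2-fold difference with an adjusted p (Benjamini-Hochberg) below 0.05. None of the 10 members passed in either direction, whereas 5.71% of all genes tested did (3.76% higher and 1.95% lower in the cKO). This balance depended on the scaling: 683 genes were higher and 355 lower, against 458 and 531 after centring on the median gene, 428 and 442 after quantile normalisation, and 836 and 310 with scaling by the reads within transcripts. Without the fold limit 0 of the 10 members and 6.15% of all genes passed. At an unadjusted p under 0.05 there were 0 of the 10 members and 21.7% of all genes, and voom on reads recovered from the values also called 0. The genotypes overlapped in all 10 members, while 20.3% of all genes tested did not overlap (13.2% higher and 7.14% lower in the cKO). Fitted log2 fold changes (cKO minus WT) ran from -0.38 for Bub1b to 0.27 for Mad1l1, with a median of 0.04, against a median of 0.12 over all genes. They were within 0.5 of 0 for all 10, as for 64.9% of all genes tested.

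Precision differed between members. The 95% interval of the log2 fold change included 0 for all 10, and for 8 of them it lay within 2-fold in both directions. For Mad1l1 (-0.46 to 1.0) and Aurkb (-0.81 to 1.20) a 2-fold increase was within the interval. The signs of these small differences are not resolved. In the RPM scaling 7 members were fitted above 0 and 3 below (60.3% of all genes tested were above 0), as with quantile normalisation. Scaling by the reads within transcripts put 9 above and 1 (Bub1b) below. Centring on the median gene, which by construction lowers all values by 0.16, put 3 above and 7 below (47.3% of all genes were then above 0).

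**Figure D1:**
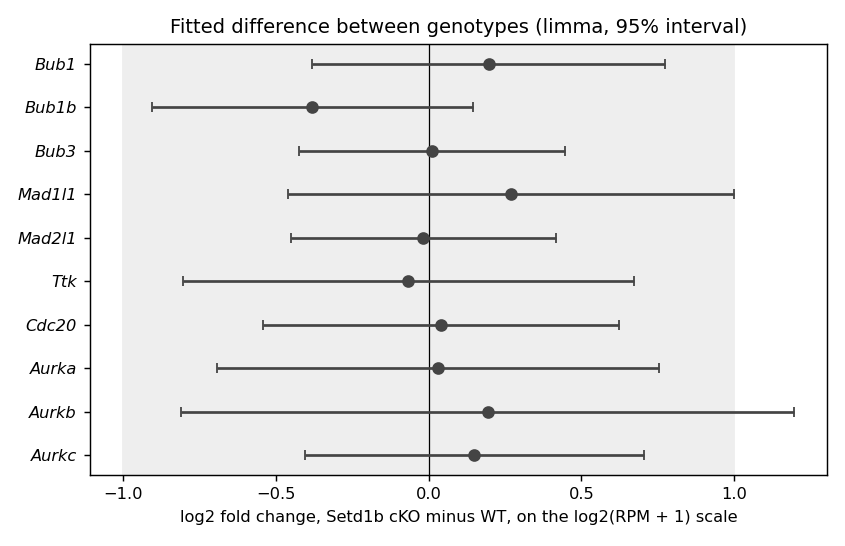
Fitted log2 fold change (Setd1b cKO minus WT, log2(RPM + 1) scale) of each gene with its 95% interval from limma, on 4 cKO and 3 WT libraries. The shaded band marks changes up to 2-fold. All 10 intervals include 0, and those of Mad1l1 and Aurkb reach the upper edge of the band or pass it.

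Ttk (chr9:83834645-83872390, plus strand) encodes MPS1, the kinase at the head of the checkpoint cascade. It was at 155, 178, 103 and 77.0 RPM in cKO replicates 1 to 4 and at 167, 147 and 84.0 RPM in WT replicates 1 to 3. The levels varied widely within each genotype, with cKO replicate 4 and WT replicate 3 lowest, and the genotypes overlapped. Its mean was 128 ± 46.5 RPM over the 4 cKO libraries (SD) and 133 ± 43.4 RPM over the 3 WT libraries (SD), so that its log2 fold change was -0.07 (SE 0.33, adjusted p = 0.941 in limma).

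Bub1 (chr2:127801122-127841168, minus strand) encodes a kinase that phosphorylates histone H2A at the kinetochore and scaffolds the other BUB and MAD proteins. Its level was 105, 147, 98.6 and 97.2 RPM in the cKO and 98.8, 131 and 68.4 RPM in the WT. The 2 genotypes overlapped, and replicate 2 was the highest library of each. Means of 112 ± 23.6 RPM (SD, n = 4) and 99.3 ± 31.2 RPM (SD, n = 3) gave a log2 fold change of 0.20 (SE 0.26, adjusted p = 0.734 in limma).

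Bub1b (chr2:118592024-118641591, plus strand) encodes BUBR1, the subunit of the mitotic checkpoint complex that blocks CDC20 and also stabilises attachments to the spindle. With all libraries it showed the largest difference of the 10. Values were 322, 357, 241 and 235 RPM in the cKO and 444, 382 and 300 RPM in the WT. The 2 highest libraries were WT and the 2 lowest cKO, but cKO replicates 1 and 2 lay above WT replicate 3. The mean was 289 ± 60.5 RPM over the 4 cKO libraries (SD) and 375 ± 72.5 RPM over the 3 WT libraries (SD). The log2 fold change of -0.38 (SE 0.24, 95% interval -0.91 to 0.15) did not pass the test (adjusted p = 0.40 in limma). It was below 0 in all 21 alternative settings, from -0.54 to -0.25, with an adjusted p of 0.183 at the lowest, found without cKO replicate 4 and WT replicate 3. Its rank changed when libraries were left out. Without cKO replicate 4 alone the fold changes of Aurkb (0.63) and Mad1l1 (0.48) were larger in size than that of Bub1b (-0.29).

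Bub3 (chr7:131560096-131572947, plus strand) encodes the adaptor that carries both BUB1 and BUBR1 to the kinetochore. It was at 279, 236, 209 and 248 RPM in the cKO and at 259, 244 and 218 RPM in the WT. The libraries lay close together, with the WT within the range of the cKO. Its log2 fold change was 0.01 (SE 0.20, adjusted p = 0.983 in limma), with means of 243 ± 29.1 RPM (SD, n = 4) and 240.2 ± 20.8 RPM (SD, n = 3).

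Mad1l1 (chr5:140008689-140323559, minus strand) encodes MAD1, which anchors MAD2 at unattached kinetochores. The level was 62.0, 57.4, 50.9 and 30.9 RPM in the cKO and 59.4, 43.9 and 24.8 RPM in the WT. Replicate 4 was the lowest of the cKO and replicate 3 of the WT, and the genotypes overlapped. With means of 50.3 ± 13.7 RPM (SD, n = 4) and 42.7 ± 17.3 RPM (SD, n = 3), the log2 fold change was 0.27 (SE 0.33, adjusted p = 0.708 in limma).

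Mad2l1 (chr6:66535201-66547184, plus strand) encodes MAD2, which changes its fold to capture CDC20. It had the most reads of the 10 members, at 528, 482, 559 and 436 RPM in the cKO and 500.0, 524 and 493 RPM in the WT. No library stood apart, and the WT lay within the range of the cKO. Its means of 501 ± 53.8 RPM (SD, n = 4) and 506 ± 16.2 RPM (SD, n = 3) gave a log2 fold change of -0.02 (SE 0.20, 95% interval -0.45 to 0.42, adjusted p = 0.975 in limma).

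Cdc20 (chr4:118432901-118437391, minus strand), the target of the checkpoint, was low by comparison. It was at 21.2, 15.9, 20.03 and 26.6 RPM in the cKO and 15.8, 18.8 and 26.8 RPM in the WT. Here cKO replicate 4 and WT replicate 3 were the 2 highest libraries. The means of 20.9 ± 4.4 RPM (SD, n = 4) and 20.5 ± 5.67 RPM (SD, n = 3) differed by 0.04 on the log2 scale (SE 0.26, adjusted p = 0.956 in limma). Elovl1, on the opposite strand at 50.3 to 93.6 RPM, overlaps 53 of the 4491 bases that the Cdc20 transcript spans with its introns. The methods describe DNA library preparation from cDNA without a strand-specific step, and do not say whether reads were counted by strand. Reads of Elovl1 in the overlap could therefore count for Cdc20, which was not tested.

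**Figure D2:**
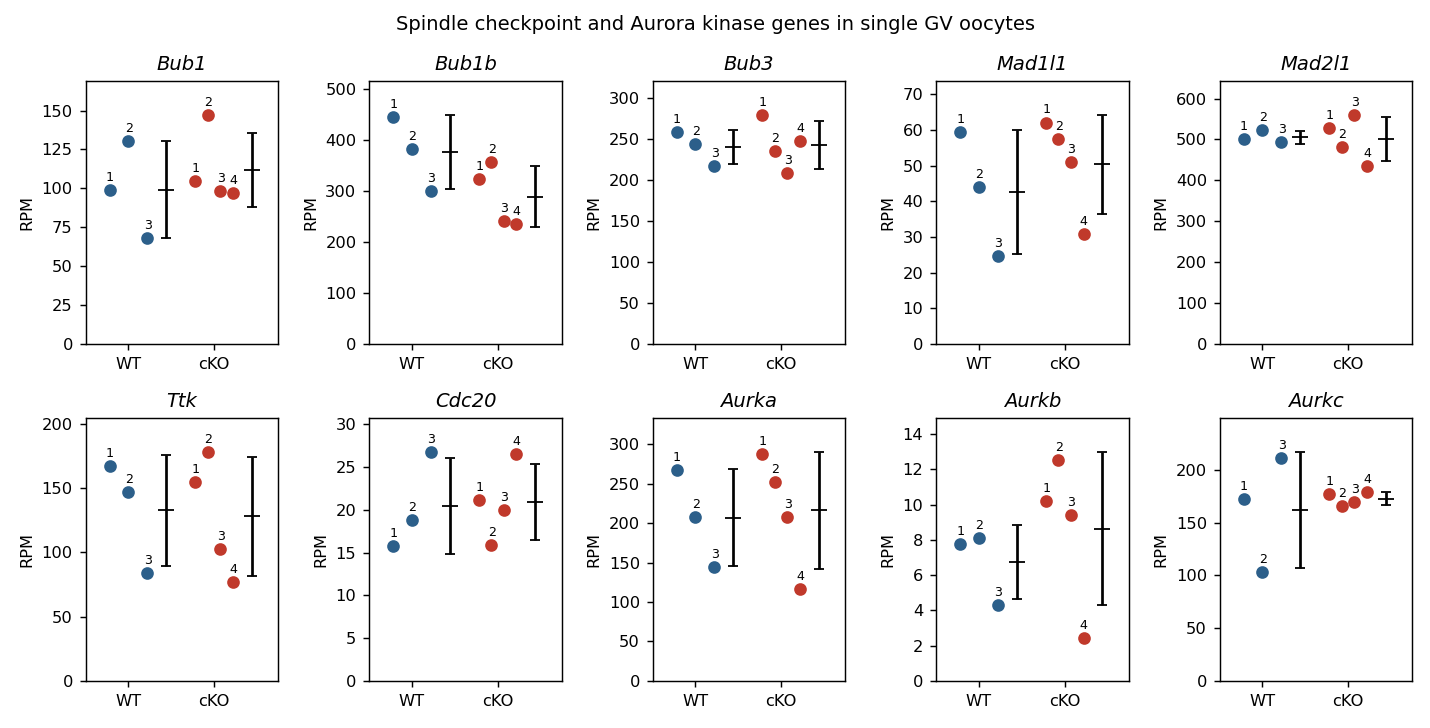
Level in RPM (vertical axis from 0, scaled for each gene) of the 10 genes in each library, with WT in blue, cKO in red and the replicate number above each point. Bars at the right of each group are the mean ± SD (n = 3 WT, n = 4 cKO). The genotypes overlap in every gene, and WT replicate 3 and cKO replicate 4 are the lowest of their group in 7 genes (Bub1, Bub1b, Mad1l1, Mad2l1, Ttk, Aurka and Aurkb) and the highest for Cdc20 and Aurkc. Both are the lowest of their group in 25.2% of all genes tested.

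Aurka (chr2:172356189-172370761, minus strand) encodes Aurora A, which organises the acentriolar spindle poles of oocytes and acts early when meiosis resumes. Its level was 288, 253, 208 and 117 RPM in the cKO and 268, 208 and 145 RPM in the WT. Both genotypes spread over about the same range, and cKO replicate 4 and WT replicate 3 were again the 2 lowest. The log2 fold change was 0.03 (SE 0.33, adjusted p = 0.974 in limma), with means of 216 ± 73.9 RPM (SD, n = 4) and 207 ± 61.6 RPM (SD, n = 3). Cstf1, on the opposite strand at 19.9 to 53.4 RPM, overlaps 112 of the 14573 bases that the Aurka transcript spans with its introns.

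Aurkb (chr11:69045647-69051664, plus strand) encodes Aurora B, the catalytic subunit of the passenger complex in somatic cells. It was at 10.2, 12.5, 9.40 and 2.45 RPM in the cKO and 7.77, 8.09 and 4.30 RPM in the WT. These levels rested on few reads, 103, 152, 108 and 21 in the cKO and 96, 105 and 46 in the WT. For the 21 reads of cKO replicate 4 the exact Poisson 95% interval was 13 to 32.1 reads, or 1.51 to 3.74 RPM, which covers counting error only. That interval lies below the levels of the other 3 cKO libraries. The means of 8.64 ± 4.34 RPM (SD, n = 4) and 6.72 ± 2.10 RPM (SD, n = 3) gave a log2 fold change of 0.19 (SE 0.45, adjusted p = 0.862 in limma).

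Aurkc (chr7:6995239-7003033, plus strand) encodes Aurora C, the paralog known from germ cells, which takes part in the passenger complex of oocytes. It was at 177, 166, 170 and 179 RPM in the cKO, the narrowest spread relative to the mean of any member in that group, and at 172, 103 and 211 RPM in the WT. The WT enclosed the cKO, with replicate 2 lowest and replicate 3 highest. Its log2 fold change was 0.15 (SE 0.25, 95% interval -0.40 to 0.70, adjusted p = 0.793 in limma), with means of 173 ± 6.31 RPM (SD, n = 4) and 162 ± 54.8 RPM (SD, n = 3).

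Levels were next compared between members per length, as RPM per kb of the longest principal transcript of each gene, averaged over the 7 libraries. These lengths are annotated ones. The isoforms that the oocytes used were not measured, and whether reads rise in proportion to length was not tested. The 3 Aurora kinases lay at both ends of this order. Aurkc was the highest, at 146 RPM per kb. This was above 95.1% of the 10480 protein-coding genes with a length that passed the filter. The level of Aurkc is uncertain, since 65.6% of its windows of 75 bases were shared with other genes. Aurka (111), Bub3 (109) and Bub1b (88.8) followed, at or above the percentile 92.1, and then Mad2l1 (66.6), Ttk (45.3) and Bub1 (31.1 RPM per kb). Mad1l1 (17.8) and Cdc20 (11.6) were lower, and Aurkb was the lowest, at 4.01 RPM per kb. Aurkb lay below the median of the protein-coding genes that passed the filter (percentile 45.5). The order depends on the lengths: Mad2l1 had a mean of 503 RPM over 7557 bases, against 168 RPM over 1154 bases for Aurkc.

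Most neighbours in this order had ranges over the 7 libraries that overlapped. Those of Cdc20 and Aurkb alone did not, with Cdc20 2.88 times higher and above Aurkb in 7 of 7 libraries. Within libraries, Mad2l1 was also above Ttk (1.47 times) and Bub1 above Mad1l1 (1.746 times) in 7 of 7. Aurka exceeded Bub3 by a ratio of 1.02, in 4 of 7 libraries, so their order is not resolved. Aurkc exceeded Aurka by 1.31 times, in 6 of 7 libraries, but by 1.06 times without cKO replicate 4 and WT replicate 3, so this order is not resolved either. Without these 2 libraries the 10 members kept their order of means, with Aurka 1.16 times above Bub3 and Cdc20 2.08 times above Aurkb. With the union of all annotated exons as the length, Bub3 took the fifth place, at 34.5 RPM per kb, and Aurkc (110.5), Aurka (83.9) and Bub1b (76.2) stayed highest.

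**Figure D3:**
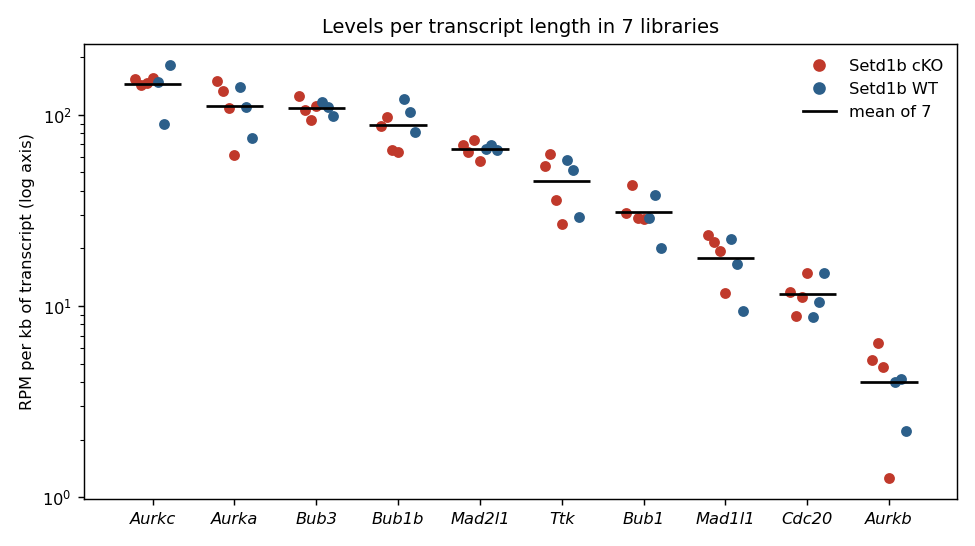
RPM per kb of transcript (log axis) of the 10 genes in order of their mean, with 1 point per library (red cKO, blue WT) and a line at the mean of 7. Levels fall from 146 for Aurkc to 4.01 for Aurkb, and the ranges of neighbours overlap except for Cdc20 and Aurkb.

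Members were also compared within each library, as differences of log2(RPM + 1) for 8 pairs, by exact permutation tests over samples (two-sided). The smallest possible p is 0.0286, or 0.229 after adjustment for a single pair, so no pair on its own could pass. Aurkc exceeded Aurkb in every library, by 3.52 to 5.71 on this scale and by 3.67 to 6.19 as a log2 ratio of RPM without a pseudocount, and the former differed by -0.04 between genotypes (exact p = 1, adjusted 1). Aurka exceeded Aurkb in every library too, by 4.23 to 5.09 and by 4.34 to 5.58 without a pseudocount (difference -0.16 on the log2(RPM + 1) scale, exact p = 0.543). The log2(RPM + 1) difference of Aurka and Aurkc was below 0 only in cKO replicate 4 (-0.61) and WT replicate 3 (-0.54), and lay between 0.29 and 1.01 in the other 5 libraries. Between genotypes it differed by -0.12 (exact permutation p = 0.686).

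With all libraries the pair with the largest difference was Bub1b to Bub1. Its difference in log2(RPM + 1) was 1.61, 1.28, 1.28 and 1.27 in the cKO and 2.16, 1.54 and 2.12 in the WT. Only cKO replicate 1 lay above the lowest WT library. The means of 1.36 ± 0.17 (SD, n = 4) and 1.94 ± 0.35 (SD, n = 3) differed by -0.58, which did not pass (exact permutation p = 0.0857, adjusted p = 0.686 over 8 pairs). The other 4 differences were -0.29 for Mad2l1 to Mad1l1, -0.26 for Ttk to Bub1, -0.19 for Bub3 to Bub1 and 0.06 for Cdc20 to Mad2l1, and all had an exact p of at least 0.371. The rank of Bub1b to Bub1 changed when libraries were left out. Without WT replicate 1 it was at -0.47 and Mad2l1 to Mad1l1 at -0.57. Without WT replicate 3 it was at -0.49 and Aurka to Aurkc at -0.57.

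The spread among oocytes was examined as a description, since the libraries that stand apart hold 1 oocyte of each genotype. In 5 of the 10 members (Bub1, Mad1l1, Ttk, Aurka and Aurkb) cKO replicate 4 and WT replicate 3 were the 2 lowest of the 7 libraries, and in 2 (Cdc20 and Aurkc) they were the 2 highest. Over all genes tested the shares were 16.5% and 11.8%, and they were 22.5% and 14.5% among the 9503 genes that averaged 8 RPM or more. Values by transcript length are given beside this pattern. In protein-coding genes with a principal transcript under 1 kb the median log2 deviation from the gene's mean was 0.60 in cKO replicate 4 and 0.37 in WT replicate 3, in those of 1 to 2 kb it was -0.042 and -0.035, in those of 2 to 4 kb it was -0.23 and -0.20, and in those of 4 kb or more it was -0.19 and -0.17. The part of transcript length in the values of the members was not tested. Among the members the principal transcripts of Aurkc (1154 bases) and Cdc20 (1793 bases) were the shortest, followed by Aurka (1905 bases) and Aurkb (1950 bases). These 4 are all of 1 to 2 kb, and in the libraries apart Aurkc and Cdc20 were high and Aurka and Aurkb low.

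Without these 2 libraries 0 of the 10 members passed the threshold. The log2 fold changes were then -0.44 for Bub1b, 0.38 for Aurkb, 0.35 for Aurkc and between -0.15 and 0.15 for the other 7, with Bub3 and Mad2l1 turning sign at -0.07 and 0.03. The 8 within-library differences between genotypes also moved. Without the 2 libraries they were -0.46 for Bub1b to Bub1, -0.32 for Aurka to Aurkb, -0.29 for Aurka to Aurkc, -0.16 for Ttk to Bub1 and -0.12 for Mad2l1 to Mad1l1. They were -0.08 for Bub3 to Bub1, -0.03 for Aurkc to Aurkb and 0.10 for Cdc20 to Mad2l1, and none turned sign. Medians of the pathway lists ran from -0.14 (Aurora A partners and spindle poles) to 0.12 (APC/C), against -0.05 to 0.11 with all libraries.

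**Figure D4:**
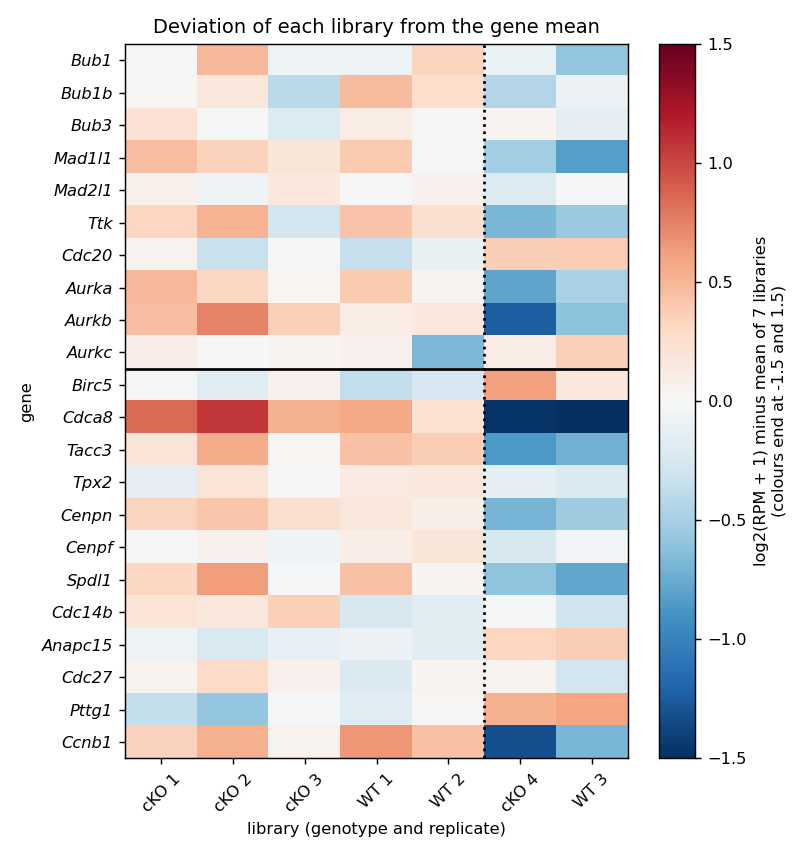
Difference of log2(RPM + 1) in each library from the mean of the 7 libraries (colour, red above and blue below), for the 10 members above the line and 12 named pathway genes below it. The libraries right of the dotted line, cKO replicate 4 and WT replicate 3, are low for Mad1l1, Ttk, Aurka, Aurkb, Cdca8, Tacc3 and Ccnb1 and high for Cdc20, Pttg1 and Anapc15.

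Genes of the same pathway were taken from 6 lists. Of 89 genes listed, 86 were in the table and 85 were tested. None passed the threshold in either direction in limma, against 3.76% higher and 1.95% lower over all genes tested. In 34 of the 85 (40.0%) cKO replicate 4 and WT replicate 3 were the 2 lowest libraries, and in 10 (11.8%) the 2 highest. The shares were 16.5% and 11.8% of all genes tested, and 22.5% and 14.5% of those that averaged 8 RPM or more. The median log2 fold change of the 85 pathway genes was 0.04, and 8 of them (9.41%) did not overlap between genotypes, against 20.3% of all genes. Among these was Cdc16, an APC/C subunit that had the lowest adjusted p of the 85 and was named after its value was seen. It was at 12.0 to 15.2 RPM in the cKO and 6.48 to 8.33 RPM in the WT, with a log2 fold change of 0.78 (SE 0.24, adjusted p = 0.0832 in limma).

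The chromosomal passenger complex and the proteins that protect centromeric cohesion had 8 tested genes, 5 fitted above 0 and 3 below (median 0.06), and none passed. Birc5, which encodes survivin, was at 1729 ± 448 RPM over the 4 cKO libraries (SD) and 1422 ± 287 RPM over the 3 WT libraries (SD; log2 fold change 0.27, adjusted p = 0.619 in limma). Cdca8, which encodes borealin, was at 342, 397, 274 and 68.05 RPM in the cKO and 285, 222 and 54.7 RPM in the WT. Its genotypes overlapped, and cKO replicate 4 and WT replicate 3 were again the 2 lowest (log2 fold change 0.57, adjusted p = 0.688 in limma). Over the list this held for 2 of the 8 genes, and in 2 others these libraries were the 2 highest.

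Partners of Aurora A and proteins of the spindle poles numbered 14, with 6 fitted above 0 and 8 below (median -0.05), and none passed. In 2 of the 14, Pcnt and Ckap5, the genotypes did not overlap (20.3% of all genes tested), and both were lower in the cKO. Pcnt, named after its value was seen, was at 44.8 to 56.5 RPM in the cKO and 71.7 to 85.0 RPM in the WT. Its log2 fold change was -0.58 (SE 0.20, adjusted p = 0.116 in limma). Tacc3, a spindle protein phosphorylated by Aurora A, was at 825 ± 299.7 RPM in the cKO and 859 ± 329 RPM in the WT (SD, n = 4 and n = 3; adjusted p = 0.959 in limma). Tpx2, the activator that targets Aurora A to microtubules, was at 199.9 ± 22.6 and 207 ± 28.6 RPM (adjusted p = 0.927 in limma). In 7 of the 14 genes cKO replicate 4 and WT replicate 3 were the 2 lowest libraries, and in none the 2 highest.

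The kinetochore core had 21 tested genes with a median of 0.04, of which 11 were fitted above 0, and none passed. Cenpn, a protein of the inner kinetochore, was at 558 ± 167 RPM in the cKO and 488 ± 120.2 RPM in the WT (log2 fold change 0.16, adjusted p = 0.819 in limma). Cenpf, of the outer corona, was at 314 ± 27.9 and 345 ± 26.4 RPM (log2 fold change -0.14, adjusted p = 0.749 in limma). The libraries apart were the 2 lowest in 10 of the 21 genes and the 2 highest in 1.

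Checkpoint cofactors had 13 tested genes, 7 above 0 and 6 below. Spdl1, which encodes Spindly, the adaptor that brings dynein to kinetochores, was at 208 ± 71.0 and 186 ± 73.5 RPM (adjusted p = 0.8294 in limma). Cdc14b, a phosphatase, was at 115 to 150 RPM in the cKO and 94.1 to 102 RPM in the WT. Its groups did not overlap, but the log2 fold change of 0.42 did not pass (SE 0.19, adjusted p = 0.229 in limma). The libraries apart were the 2 lowest in 4 of the 13 genes and the 2 highest in 2.

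The APC/C and its regulators had 20 tested genes, 14 fitted above 0 and 6 below, with a median of 0.11, near the 0.12 of all genes. Anapc15, the subunit that helps to release the checkpoint complex, was at 271 ± 47.6 and 284 ± 59.2 RPM (adjusted p = 0.912 in limma). Cdc27, a core subunit, was at 210 ± 17.3 RPM in the cKO and 175 ± 21.5 RPM in the WT, without overlap (log2 fold change 0.26, adjusted p = 0.495 in limma). Here the libraries apart were the 2 lowest in 6 of the 20 genes and the 2 highest in 4.

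Of 9 substrates of the APC/C, 4 were fitted above 0 and 5 below, and none passed. The libraries apart were the 2 lowest in 5 of these 9 and the 2 highest in 1. Pttg1, which encodes securin, had the highest mean of the genes in the 6 pathway lists, at 2208, 1898, 2774 and 4092 RPM in the cKO and 2492, 2861 and 4265 RPM in the WT. Ccnb1, which encodes cyclin B1, was at 1146, 1307, 935 and 362 RPM in the cKO and 1416, 1232 and 562 RPM in the WT. These 2 substrates, whose destruction together allows anaphase, deviated in opposite directions in cKO replicate 4 and WT replicate 3, where Pttg1 was highest and Ccnb1 lowest. Neither differed between genotypes beyond its spread (log2 fold change -0.25 and -0.24, adjusted p = 0.722 and 0.825 in limma).

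**Figure D5:**
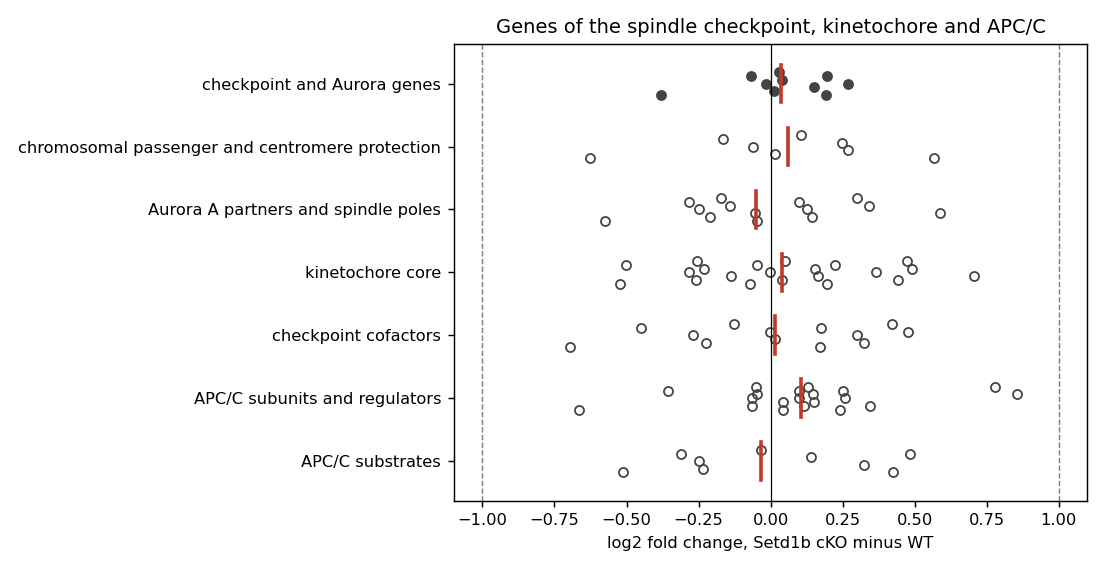
Fitted log2 fold change (Setd1b cKO minus WT) of each tested gene in the 10 members (filled) and 6 pathway lists (open), with the median of each list as a red line and dashed lines at a 2-fold change. No gene reaches a 2-fold change, and the medians lie between -0.05 and 0.11.

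The genes most like the Aurora kinases in pattern were sought over the 7 libraries among 8247 named genes that averaged 8 RPM or more, as a description. For Aurka they were Dpf2 (Pearson r 0.996), Rab32 (0.996) and Kif22 (0.994), and 485 genes had r above 0.9. For Aurkb they were Zfp120 (0.991), Lrpprc (0.991) and Mindy3 (0.990), with 490 genes above 0.9. For Aurkc only 14 genes had r above 0.9, led by Gm15389 (0.975), Tsta3 (0.958) and Gm6909 (0.954), of which Gm6909 shares sequence with Aurkc. The points are the same 7 libraries for every gene, and 2 of them, cKO replicate 4 and WT replicate 3, stand apart from the rest.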

How the data were processed

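GV oocytes were sequenced singly after SMARTer amplification and NEBNext library construction. The authors trimmed reads with trim galore 0.4.2, mapped them with Hisat 2.0.5 to GRCm38, removed low-quality mappings and quantified merged oocyte transcripts in SeqMonk. The submitters' processing notes also name bcl2fastq 1.8.4 and featureCounts 1.4.4. Values were deposited as log2 RPM, after the authors had scaled them to mapped reads, with 0.9 read in place of 0. Whole reads (tolerance 0.01) were recovered for 100% of values above 0 reads, at 8582493 to 12972366 mapped reads per library, and 3 reads, the limit for a count of 0, correspond to 0.231 to 0.350 RPM.

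Members were taken where the named gene lay on the transcript's strand. Bub1b, Bub3 and Cdc20 were taken by an overlap of at least 0.5 of the union of spans with GENCODE M21 genes. Members and lists were chosen with earlier results of these data known. Named genes were all members, from each pathway list any gene past the threshold and the 2 with the highest mean, and 3 genes most like each Aurora kinase. Cdc16, Pcnt and Ckap5 were named in addition, after their values were seen.

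Values were tested as log2(RPM + 1), with at least 1 RPM in 3 libraries, by lmFit and eBayes with a trend in limma 3.58.1 (R 4.3.3), cKO against WT without covariates, after being tested on simulated data. The threshold was more than a 2-fold difference with an adjusted p (Benjamini-Hochberg) below 0.05. Ratios were tested by exact permutation. Other steps used Python 3.11.15, numpy 2.4.6, pandas 2.3.3 and matplotlib 3.10.9. Promoters are from RefSeq (GRCm38.p6). The alternatives were pseudocounts of 0.1 and 5 RPM, the values as deposited, other filters, other scalings, eBayes without trend, library quality weights, a replicate block, libraries left out and voom. No library was left out of the main comparison.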

Additional observations from a re-analysis of the deposited data

Results flagged for a closer look

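Among 30 values examined in the 4 Setd1b cKO libraries (members, ratios and named pathway genes), 3 had 1 library far from the others by the gap to its nearest neighbour over the whole range. For independent values chance gives about 1 in 20, or 1.5 of 30. These values are not independent, since they share the same 4 libraries and the ratios are built from the members. The number flagged can therefore not be weighed against that rate. Bub1 was at 147 RPM in cKO replicate 2 and at 97.2 to 104.7 RPM in the others, a gap of 0.8485 of the range. The log2 ratio of Bub1b to Bub1 was 1.61 in cKO replicate 1 and 1.27 to 1.28 in the others, a gap of 0.9626 of the range. Cdc27 was at 236 RPM in cKO replicate 2 and at 200.4 to 202 RPM in the others, a gap of 0.9575 of the range.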

How the results depend on the processing

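None of the 10 members passed the threshold under any of 22 alternatives, and none of the 85 pathway genes under 21. Over all genes, 683 higher and 355 lower became 315 higher with a pseudocount of 5 RPM, 396 without a filter, 428 (and 442 lower) with quantile normalisation, 443 with voom (chosen after seeing the data), and 1197 higher and 554 lower with library quality weights; the cause was not tested. Leaving out 1 library, or cKO replicate 4 and WT replicate 3 together, gave 172 to 1015 higher and 117 to 522 lower genes, the lowest counts without WT replicate 2. Centring on the median gene gave 458 higher and 531 lower. Fold changes near 0 turned sign. Centring on the median gene gave -0.14 for Bub3, -0.11 for Cdc20, -0.12 for Aurka and -0.0056 for Aurkc, by its construction. Quantile normalisation gave 0.089 for Mad2l1 and -0.036 for Cdc20, scaling by reads within transcripts 0.062 for Mad2l1 and 0.013 for Ttk, and library quality weights -0.022 for Bub3 and 0.012 for Mad2l1; the cause was not tested. With libraries left out the log2 fold changes ran from -0.044 to 0.42 for Bub1, -0.53 to -0.25 for Bub1b, -0.069 to 0.081 for Bub3, -0.068 to 0.55 for Mad1l1, -0.072 to 0.047 for Mad2l1, -0.36 to 0.15 for Ttk, -0.12 to 0.24 for Cdc20, -0.20 to 0.30 for Aurka, -0.058 to 0.63 for Aurkb and -0.14 to 0.37 for Aurkc. The differences in log2 ratio (on RPM + 1) ran from -0.50 to 0.43 for Aurkc to Aurkb, -0.57 to 0.20 for Aurka to Aurkc, -0.57 to 0.032 for Mad2l1 to Mad1l1, -0.12 to 0.28 for Cdc20 to Mad2l1, -0.33 to -0.044 for Aurka to Aurkb, -0.39 to -0.012 for Bub3 to Bub1, -0.40 to -0.09 for Ttk to Bub1 and -0.78 to -0.46 for Bub1b to Bub1.

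The replicate block, with the replicate number as a factor, gave -0.00043 for Bub3, 0.047 for Mad2l1, 0.15 for Ttk and -0.076 for Cdc20, and ratio differences of 0.17 for Aurka to Aurkc and -0.12 for Cdc20 to Mad2l1, and called no member. In the fits the block leaves cKO replicate 4 without a partner, so these values equal those without that library. The within-library differences, levels per length and list medians without cKO replicate 4 and WT replicate 3 were chosen after seeing the data. Deviations of same-numbered libraries correlated at 0.192, 0.295 and -0.129, and cKO replicate 2 correlated better with WT replicate 1 (0.429) than with its own number, so the numbers were not taken to pair the samples. The highest correlation, 0.608, was that of cKO replicate 4 with WT replicate 3, which share no number. The planned negative binomial models on the recovered reads were not run, and voom was run on those reads in their place. Counts of 21 to 152 reads limit Aurkb, and a 2-fold change of Mad1l1 or Aurkb was not excluded.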
